A study of Homo sapiens with 18 samples.

Results

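The genes described here are 38 known targets or members of the integrated stress response that runs through the transcription factor ATF4, taken by gene symbol from a list that leaves out the aminoacyl-tRNA synthetases. All 38 were listed in each of 3 tables of gene expression, which hold 25673 gene names (RKO), 19909 (COLO 201) and 19977 (H1975). RKO and COLO 201 are established colon cancer lines and H1975 is an established lung cancer line. Every culture of each line carried tet-MUC1shRNA, a hairpin against the mucin MUC1 that doxycycline switches on, and puromycin resistance. In each line, 3 columns of cells given doxycycline (500 ng/ml) were compared with 3 columns of cells given the vehicle (0.1% DMSO), in medium with 10% serum; the cultures were grown in triplicate, per the labels' protocols. The time of exposure and whether a line was 1 clone are not given in the sources used here. Columns of a control hairpin with doxycycline were not analysed here, so the hairpin and doxycycline itself cannot be told apart. Because all 18 sample records carry the same agent, the arm was read from the column headings, and for RKO the columns without a sign were read as vehicle.

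In the integrated stress response, any of several kinases phosphorylates the translation factor eIF2alpha, which lowers protein synthesis in general while the mRNA of ATF4 is translated more. ATF4, mostly as a dimer with a C/EBP protein, then turns on genes that make serine, glycine, asparagine and proline, that carry amino acids into the cell and that feed back on the response itself. In cancer cells these genes are known for keeping up amino acid supply, and DDIT3 (the protein CHOP) and its partners for cell death under lasting stress. ATF4 itself is set largely by translation, so that its mRNA does not report its protein.

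ATF4 and C/EBP dimers bind a composite element, searched here as TGATGNAA and in its strict form TGATGCAA, on both strands, in the 250 bases before to 50 bases after each gene start of RefSeq GRCh38.p14. The table has entries for 31 members, which together have 50 promoters. Counted by promoter, 10 of the 50 held TGATGNAA, against 3.62% of all 35116 promoters, and 6 of the 50 held the strict form, against 0.866%. Counted by gene with a match in any of its promoters, 10 of the 31 members (32.3%) held TGATGNAA, against 4.46% of all 27305 genes of the table, and 6 (19.4%) held the strict form, against 1.08%. The strict matches are contained in the looser ones. The cyclic AMP response element TGACGTCA was present for 1 of the 31 members (3.23%), PPP1R15A, against 2.25% of all genes, and it overlaps neither other motif. These matches are descriptions of letters, not of bound sites. The windows of members that recur in the results are shown 5′ to 3′ on the strand of the gene, with the motif, or its reverse complement, in capitals:
CHAC1 (chr15:40953251-40953280, plus strand): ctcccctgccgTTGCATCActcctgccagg
ASNS (chr7:97872458-97872487, minus strand): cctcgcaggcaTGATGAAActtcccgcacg
SLC1A5 (chr19:46784893-46784922, minus strand): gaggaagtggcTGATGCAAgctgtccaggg
CEBPG (chr19:33374060-33374089, plus strand): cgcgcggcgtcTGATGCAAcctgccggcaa
ATF3 (chr1:212565205-212565234, plus strand): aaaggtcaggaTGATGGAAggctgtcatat
PPP1R15A (chr19:48872352-48872381, plus strand): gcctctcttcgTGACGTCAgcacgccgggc
JDP2, SLC1A4, SLC3A2, SLC7A1 and FGF21 were the other members with TGATGNAA, and of these JDP2, SLC1A4 and FGF21 had the strict form.

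MUC1, the target of the hairpin, was the check of the column headings. In H1975 MUC1 stood at 7.05, 9.56 and 7.44 TPM with doxycycline, against 101, 86.2 and 105 TPM with vehicle (log2 change -3.46 ± 0.10, adjusted p = 4.13e-11). In COLO 201 MUC1 stood at 2.03, 1.78 and 1.53 TPM with doxycycline, against 13.2, 15.0 and 13.6 TPM with vehicle (log2 change -2.43 ± 0.08, adjusted p = 3.49e-10). In RKO MUC1 stood at 0.108, 0.105 and 0.204 TPM with doxycycline, against 15.2, 1.24 and 1.03 TPM with vehicle (log2 change -1.88 ± 0.43, adjusted p = 0.00272). All doxycycline columns lay below all vehicle columns in each line, where an exact two-sided permutation test of 3 against 3 columns gives its smallest possible p of 0.1. The RKO call was lost without doxycycline column 1 or 2 (log2 changes of -1.86 in both cases) and after rescaling (-1.77, adjusted p = 0.145). Vehicle column 1 was far above the other RKO vehicle columns for MUC1; without it MUC1 averaged 0.537 TPM, under the minimum for the test, and the untested difference in mean log2(TPM + 1) was -0.90.

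The values are TPM, transcript abundances scaled by gene length and by the total of the column, so they can be set against each other between genes of a table but keep no number of reads. Log2 changes below are doxycycline minus vehicle on the log2(TPM + 1) scale, with the standard error after ±; they understate the change of genes with low values. A gene was called where the Benjamini-Hochberg adjusted p of limma, taken over all genes of a line with a mean of at least 1 TPM, was below 0.05. Between 14687 and 16935 genes were above 0 in a column. In RKO, 70.9% to 78.5% of TPM in doxycycline columns and 67.5% to 71.7% in vehicle columns belonged to small noncoding RNAs. In COLO 201, mitochondrially encoded genes held 16.9% to 18.6% of TPM in doxycycline columns and 20.1% to 23.0% in vehicle columns. In H1975 they held 16.06% to 17.38% and 17.45% to 22.54%. With those genes removed the median change of all genes was 0.06 in COLO 201 and 0.01 in H1975. As deposited, the median change of all genes was -0.26 in RKO, 0.12 in COLO 201 and 0.06 in H1975. After rescaling each column by its median ratio to the others it was -0.01, 0.00 and 0.00. Of the colon markers, 5 of 7 reached a mean of 1 TPM in COLO 201 (summed 140 to 143 TPM with doxycycline and 199 to 203 TPM with vehicle) but only CDX2 did in RKO, where VIL1, KRT20 and GPA33 were at 0 in every column. Of the lung markers, 3 of 7 did so in H1975 (summed 21.7 to 25.2 TPM with doxycycline and 31.6 to 36.1 TPM with vehicle, with 2 of the 3 called lower), with SFTPC and SCGB1A1 at 0. That mean was reached by 3 of 5 epithelial markers in RKO and by all 5 in the other lines. In H1975 the fibroblast and endothelial list, with 2 of 9 genes at that mean and DCN and PECAM1 at 0, added up to 17.2 to 20.9 TPM with doxycycline and 45.2 to 47.3 TPM with vehicle. In COLO 201 the leukocyte and erythroid list, with 2 of 7 genes at that mean and HBB at 0, added up to 594 to 626 TPM with doxycycline and 1219 to 1223 TPM with vehicle, nearly all of it LYZ. Their part in the results was not tested.

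One RKO library stood apart. In RKO vehicle column 1, 9 fibroblast and endothelial markers added up to 182.8 TPM, against 0.00420 to 0.0199 TPM in the doxycycline columns and at most 0.00945 TPM in the other vehicle columns, and COL1A1, COL1A2 and COL3A1 were the 3 with a mean of at least 1 TPM. The secreted hormone STC2 was listed at 42.4 TPM in that column and at 0 in the other 5 RKO columns. DDIT4, the mTORC1 inhibitor REDD1, stood at 56.5 TPM there, against 14.0 and 13.3 TPM in vehicle columns 2 and 3. NUPR1, a small stress-induced chromatin protein, stood at 13.8, 2.84 and 2.56 TPM in vehicle columns 1, 2 and 3. Of the 33 members with at least 0.1 TPM in vehicle columns 2 and 3, 4 were more than 2 times as high in column 1 (NUPR1, DDIT4, ATF3 and SLC6A9) and 23 were below 1 times, with a median ratio of 0.827. The part of these markers in the RKO results was not tested, and RKO values are given with and without this column where it matters.

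**Figure D1:**
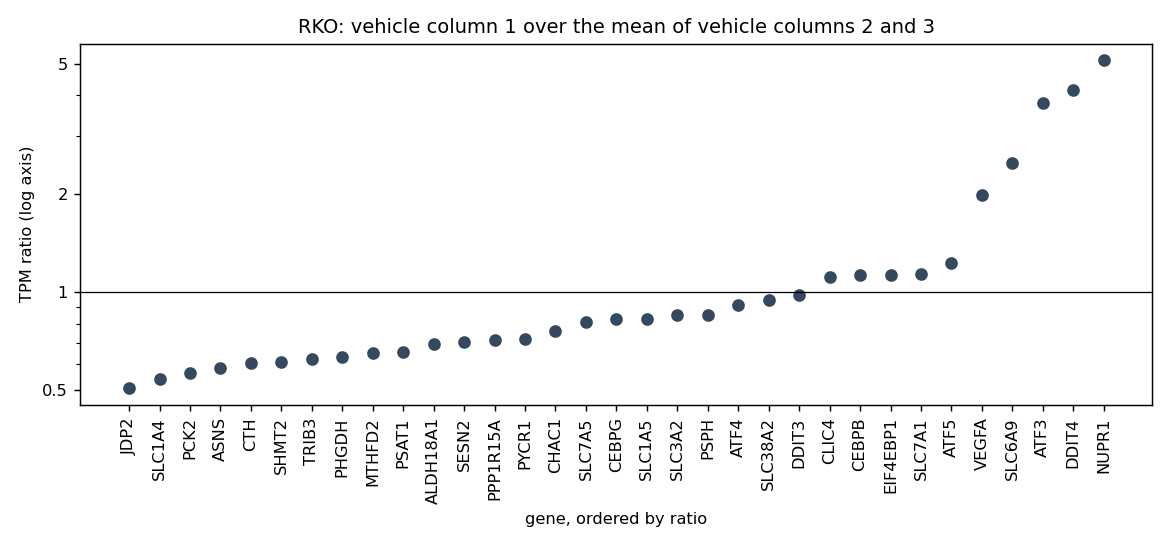
Ratio of RKO vehicle column 1 to the mean of vehicle columns 2 and 3, in TPM on a log axis, for the 33 members with at least 0.1 TPM in those 2 columns; the line marks equal levels. ATF3, DDIT4 and NUPR1 stand well above the line, while 23 members lie below it.

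With doxycycline, the 38 genes did not move as 1 block in any line. TRIB3, the pseudokinase that restrains ATF4 and CHOP, was called higher in all 3 lines as deposited. JDP2, CHAC1, DDIT4, PHGDH and PSAT1 were called lower in all 3 lines as deposited. DDIT3, SESN2 and PPP1R15A separated the lines, with DDIT3 at 2.43 times the vehicle mean in RKO and called lower in COLO 201. Of the 38 genes, 29 were called in at least 1 line and 32 could be tested in every line. The share of all genes called in at least 1 line was not counted. In these bulk cultures fewer cells of a kind and less RNA per cell cannot be told apart.

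In RKO, 4 of 34 tested members were higher with doxycycline and 8 were lower, where 2.09% of all tested genes were higher and 16.1% lower. After rescaling, 6 members were higher and 7 lower of 34, against 13.7% and 14.2% of all genes. With vehicle column 1 also left out, 11 were higher and 14 lower of 33, against 28.9% and 29.9% of all genes. The median change of the members was -0.30, beside -0.26 for all genes. Without doxycycline column 1 the RKO counts were 3 higher and 0 lower, and without doxycycline column 3 they were 2 and 5. Only DDIT3 and TRIB3 of the 12 RKO calls were kept whichever single column was left out.

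In COLO 201, 10 of 34 tested members were higher and 13 lower, where 45.9% of all tested genes were higher and 15.0% lower. After rescaling these counts were 4 higher and 19 lower, against 28.5% and 28.7% of all genes, so that the split between the directions rests on the scaling. The median change of the members was -0.02, beside 0.12 for all genes. Of the 23 calls, 21 were kept under every single column left out, all but TRIB3 and PSPH.

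In H1975, 9 of 37 tested members were higher and 9 lower, where 23.9% of all tested genes were higher and 14.6% lower. After rescaling there were 6 higher and 14 lower members, against 18.5% and 19.9% of all genes. The median change of the members was -0.02, beside 0.06 for all genes. Here 11 of the 18 calls were kept under every single column left out, and without doxycycline column 1 or vehicle column 1 the higher calls came to 5.

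Over the genes tested in every line, 1 of 32 members was called higher in all lines (TRIB3), against 0.561% of all 9275 genes, and 5 of 32 were called lower in all lines, against 1.66%. These counts are as deposited. After rescaling TRIB3 was not called in COLO 201 (limma adjusted p = 0.830), nor were JDP2 and DDIT4 in RKO (0.130 and 0.217). CHAC1, PHGDH and PSAT1 kept their calls. Each of the 5 lower members lost its RKO call without at least 1 single column. The share of all genes called in every line after rescaling was not counted. A joint fit over the lines tested whether the doxycycline change differed between them. It was called for 20 of 32 members, beside 56.8% of all genes, so that members differed between lines about as often as other genes did.

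**Figure D2:**
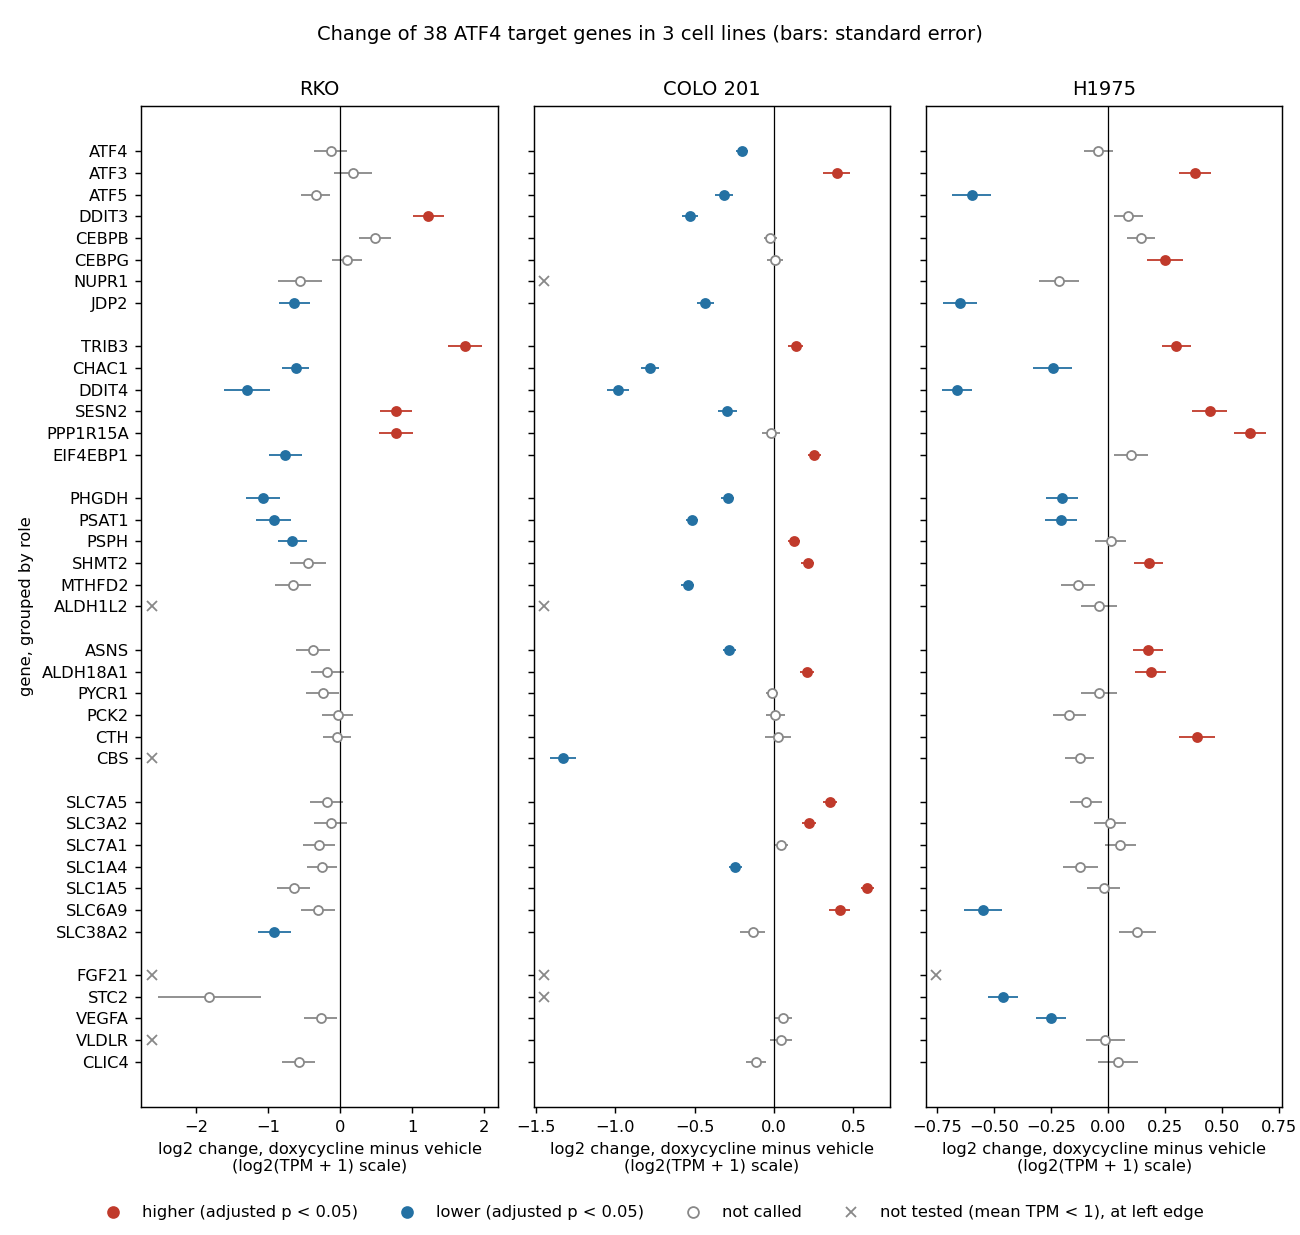
Log2 change of each of the 38 genes with doxycycline over vehicle in RKO, COLO 201 and H1975, with standard errors; filled points passed an adjusted p of 0.05, open points did not, and crosses mark genes with a mean under 1 TPM. The horizontal axes differ between the panels; TRIB3 lies right of 0 in each panel and JDP2, CHAC1, DDIT4, PHGDH and PSAT1 lie left of it.

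Of all tested genes, beside which the counts by role stand, 2.09% were higher and 16.1% lower in RKO. In COLO 201 these shares were 45.9% and 15.0%, and in H1975 23.9% and 14.6%. After rescaling they were 13.7% and 14.2%, 28.5% and 28.7%, and 18.5% and 19.9% in the same order. Among the transcription factors, RKO had 1 higher and 1 lower of 8 tested (3 and 0 after rescaling), COLO 201 had 1 higher and 4 lower of 7 (1 and 6), and H1975 had 2 higher and 2 lower of 8 (2 and 3). After rescaling without vehicle column 1, RKO had 6 higher and 1 lower of 8, against 28.9% and 29.9% of all genes. In that setting feedback and stress effectors had 3 and 3 of 6. Serine, glycine and one-carbon enzymes had 0 and 5 of 5, and other enzymes 0 and 1 of 5. Amino acid transporters had 1 and 3 of 7, and secreted and surface proteins 1 and 1 of 2. ATF4 (ENSG00000128272.14, chr22:39519695-39522685, GRCh38) had the highest vehicle mean of the members in RKO and H1975. In RKO ATF4 stood at 136, 183 and 159 TPM with doxycycline, against 163, 197 and 162 TPM with vehicle (log2 change -0.13 ± 0.22, adjusted p = 0.702). In COLO 201 ATF4 stood at 369, 361 and 383 TPM with doxycycline, against 419, 429 and 433 TPM with vehicle (log2 change -0.20 ± 0.04, adjusted p = 6.42e-04). In H1975 ATF4 stood at 498, 512 and 465 TPM with doxycycline, against 492, 499 and 529 TPM with vehicle (log2 change -0.04 ± 0.06, adjusted p = 0.617). Every doxycycline column was below every vehicle column in COLO 201, by a small margin, and the arms overlapped in RKO and H1975. In RKO the sign of ATF4 depended on the scaling: the change was 0.16 after rescaling and, with vehicle column 1 also left out, 0.14 (adjusted p = 0.0484).

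DDIT3 (ENSG00000175197.12, chr12:57516588-57521737, GRCh38) encodes CHOP, the bZIP factor linked to cell death under lasting stress. DDIT3 in RKO stood at 33.1, 47.6 and 38.1 TPM with doxycycline, against 16.0, 17.8 and 15.0 TPM with vehicle (log2 change 1.22 ± 0.21, adjusted p = 2.25e-04). DDIT3 in COLO 201 stood at 17.2, 17.6 and 18.5 TPM with doxycycline, against 26.8, 26.6 and 25.0 TPM with vehicle (log2 change -0.53 ± 0.05, adjusted p = 2.42e-06). DDIT3 in H1975 stood at 315, 308 and 281 TPM with doxycycline, against 279, 284 and 286 TPM with vehicle (log2 change 0.09 ± 0.06, adjusted p = 0.294). Its arms lay apart in opposite directions in the 2 colon lines and overlapped in H1975. The RKO rise came to 2.43 times the vehicle mean and was as large without vehicle column 1 (1.21). ATF3 is a bZIP factor that ATF4 and other stress inputs turn on. ATF3 in RKO stood at 1.46, 2.62 and 1.61 TPM with doxycycline, against 3.41, 0.894 and 0.901 TPM with vehicle (log2 change 0.18 ± 0.26, adjusted p = 0.644). ATF3 in COLO 201 stood at 1.44, 1.82 and 1.54 TPM with doxycycline, against 0.864, 1.03 and 1.04 TPM with vehicle (log2 change 0.39 ± 0.09, adjusted p = 0.00166). ATF3 in H1975 stood at 34.9, 34.7 and 35.0 TPM with doxycycline, against 25.1, 28.0 and 26.7 TPM with vehicle (log2 change 0.38 ± 0.07, adjusted p = 7.88e-04). All doxycycline columns were above all vehicle columns in COLO 201 and H1975; in RKO vehicle column 1 was the highest of the 6, and without it ATF3 was called higher (0.59, adjusted p = 0.00138).

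ATF5 is a bZIP factor whose translation is controlled like that of ATF4. ATF5 in RKO stood at 10.2, 13.1 and 12.6 TPM with doxycycline, against 17.5, 15.5 and 13.0 TPM with vehicle (log2 change -0.34 ± 0.20, adjusted p = 0.237). ATF5 in COLO 201 stood at 5.84, 6.08 and 6.09 TPM with doxycycline, against 7.55, 7.62 and 7.93 TPM with vehicle (log2 change -0.31 ± 0.06, adjusted p = 4.79e-04). ATF5 in H1975 stood at 16.5, 15.3 and 13.6 TPM with doxycycline, against 22.2, 25.5 and 22.5 TPM with vehicle (log2 change -0.60 ± 0.08, adjusted p = 1.10e-04). It fell without overlap of the arms in COLO 201 and H1975, while in RKO the arms overlapped. JDP2 (ENSG00000140044.12, chr14:75427716-75474111, GRCh38) is a bZIP protein that represses AP-1 sites. JDP2 in RKO stood at 1.24, 1.86 and 1.77 TPM with doxycycline, against 1.92, 3.85 and 3.72 TPM with vehicle (log2 change -0.64 ± 0.21, adjusted p = 0.0375). JDP2 in COLO 201 stood at 6.98, 7.03 and 6.74 TPM with doxycycline, against 9.61, 9.79 and 9.64 TPM with vehicle (log2 change -0.43 ± 0.05, adjusted p = 2.52e-05). JDP2 in H1975 stood at 9.46, 10.3 and 9.56 TPM with doxycycline, against 14.8, 16.5 and 16.4 TPM with vehicle (log2 change -0.65 ± 0.08, adjusted p = 2.20e-05). Every doxycycline column lay below every vehicle column in each of the 3 lines, narrowly in RKO. The RKO call was lost after rescaling (-0.44, adjusted p = 0.130) and without any single column other than vehicle column 1 (adjusted p of 0.0665 to 0.242). Without vehicle column 1 it was -0.88 (adjusted p = 1.99e-05).

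CEBPB and CEBPG, C/EBP partners of ATF4, were not called in RKO or COLO 201 as deposited. After rescaling both were called higher in RKO (0.77 and 0.37) and lower in COLO 201 (-0.15 and -0.11). CEBPG rose in H1975 (log2 change 0.25 ± 0.08, adjusted p = 0.0229), a call lost without doxycycline column 1 or 3 or vehicle column 1 (adjusted p of 0.0530 to 0.112). CEBPB stood at a log2 change of 0.14 ± 0.06 (adjusted p = 0.0789) in H1975. NUPR1 was not called in RKO, at -0.56 ± 0.31 (adjusted p = 0.200), or in H1975, at -0.22 ± 0.09 (adjusted p = 0.0628), and was under 1 TPM on average in COLO 201. In RKO it was called lower without vehicle column 2 or 3 (-0.86 and -0.92), which leaves column 1 with more weight, and higher at 0.34 without column 1 after rescaling. In H1975 NUPR1 was called lower without doxycycline column 2 (-0.30) and after rescaling (-0.28).

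The feedback and stress effectors held the largest called rise and fall among the members in RKO and in H1975 as deposited. In RKO that fall was DDIT4, and it rests on vehicle column 1: without that column (-1.29) and after rescaling (-0.78) the largest called fall was that of PHGDH, a serine enzyme. Of the 6, 3 were higher and 3 lower in RKO (3 and 2 after rescaling), 2 and 3 in COLO 201 (0 and 4), and 3 and 2 in H1975. TRIB3 (ENSG00000101255.10, chr20:362835-397559, GRCh38) binds ATF4 and CHOP and dampens their activity. TRIB3 in RKO stood at 42.0, 67.9 and 57.9 TPM with doxycycline, against 11.6, 20.5 and 16.7 TPM with vehicle (log2 change 1.73 ± 0.24, adjusted p = 9.35e-06). TRIB3 in COLO 201 stood at 50.8, 50.3 and 49.2 TPM with doxycycline, against 43.1, 45.0 and 48.6 TPM with vehicle (log2 change 0.14 ± 0.05, adjusted p = 0.0276). TRIB3 in H1975 stood at 348, 355 and 331 TPM with doxycycline, against 277, 268 and 296 TPM with vehicle (log2 change 0.30 ± 0.06, adjusted p = 0.00257). The doxycycline columns were above the vehicle columns in all 3 lines, 3.44 times the vehicle mean in RKO but only 1.10 times in COLO 201. The COLO 201 value kept its sign but not its call after rescaling (0.01, adjusted p = 0.830), and it was also lost without doxycycline column 1 or vehicle column 1 or 2 (adjusted p of 0.0779 to 0.141). With that scaling TRIB3 was higher in RKO (2.01) and H1975 (0.24) only.

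CHAC1 (ENSG00000128965.12, chr15:40952962-40956519, GRCh38) breaks down glutathione and is turned on by ATF4 and CHOP. CHAC1 in RKO stood at 2.66, 3.96 and 3.02 TPM with doxycycline, against 4.51, 6.31 and 5.53 TPM with vehicle (log2 change -0.62 ± 0.19, adjusted p = 0.0206). CHAC1 in COLO 201 stood at 9.63, 10.1 and 9.82 TPM with doxycycline, against 16.4, 18.1 and 18.4 TPM with vehicle (log2 change -0.78 ± 0.06, adjusted p = 2.66e-07). CHAC1 in H1975 stood at 15.6, 17.9 and 15.0 TPM with doxycycline, against 19.0, 17.8 and 21.0 TPM with vehicle (log2 change -0.24 ± 0.09, adjusted p = 0.0369). Doxycycline and vehicle columns did not mix in the colon lines, while in H1975 doxycycline column 2 lay just above vehicle column 2. The call was lost in RKO without doxycycline column 1 or 3 or vehicle column 2 or 3 (adjusted p of 0.0597 to 0.137). In H1975 it was lost without doxycycline column 1 or 3 or vehicle column 1 or 3 (adjusted p of 0.0610 to 0.169). DDIT4 (ENSG00000168209.4, chr10:72273920-72276036, GRCh38) encodes REDD1, an inhibitor of the growth kinase complex mTORC1. DDIT4 in RKO stood at 6.29, 11.0 and 8.63 TPM with doxycycline, against 56.5, 14.0 and 13.3 TPM with vehicle (log2 change -1.29 ± 0.32, adjusted p = 0.00551). DDIT4 in COLO 201 stood at 22.5, 20.4 and 23.2 TPM with doxycycline, against 40.7, 43.2 and 50.1 TPM with vehicle (log2 change -0.98 ± 0.07, adjusted p = 2.53e-07). DDIT4 in H1975 stood at 88.7, 96.3 and 96.0 TPM with doxycycline, against 147, 146 and 154 TPM with vehicle (log2 change -0.67 ± 0.07, adjusted p = 4.81e-06). All doxycycline columns were below all vehicle columns in each line, and in COLO 201 the mean was 0.494 times that of vehicle. In RKO the size rests on vehicle column 1: without it the change was -0.63 (adjusted p = 0.0329). The RKO call was also lost after rescaling (-1.02, adjusted p = 0.217) and without doxycycline column 1 or 2 (adjusted p of 0.0565 to 0.233), and it was kept with rescaling and vehicle column 1 left out (-0.34, adjusted p = 0.00304).

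**Figure D3:**
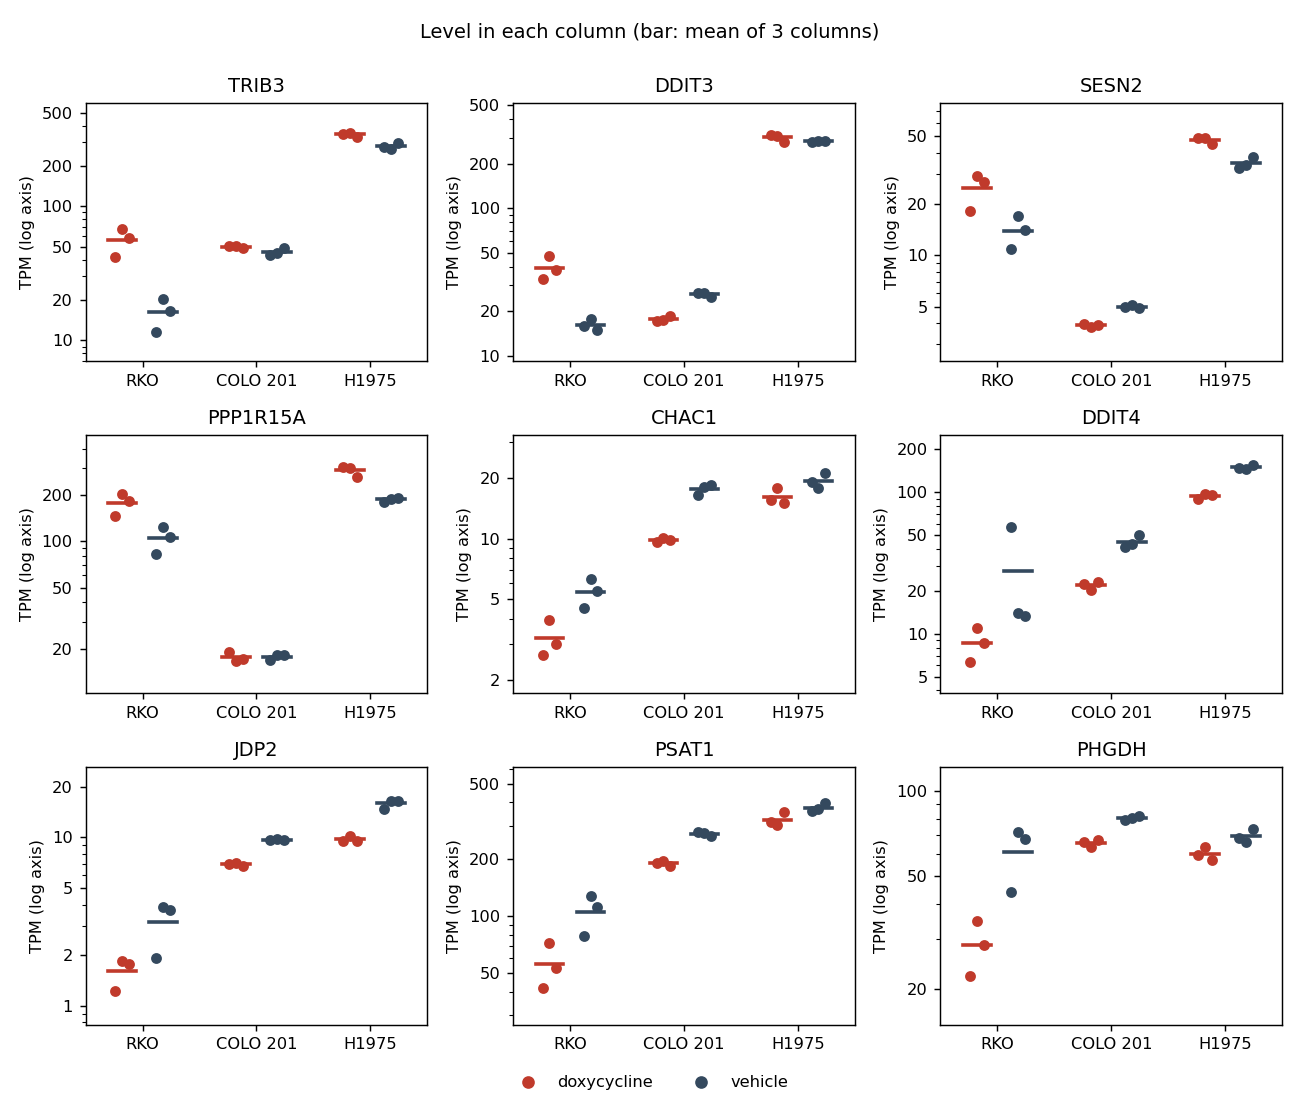
TPM in each column, on log axes, for 9 members in RKO, COLO 201 and H1975; doxycycline columns stand left of vehicle columns, and bars are means of 3 columns. TRIB3 is higher with doxycycline in each line, DDIT3 is higher in RKO and lower in COLO 201, and DDIT4, JDP2 and PSAT1 are lower in each line, with RKO vehicle column 1 far above the others for DDIT4.

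SESN2 senses leucine and holds back mTORC1. SESN2 in RKO stood at 18.2, 29.1 and 26.9 TPM with doxycycline, against 10.9, 16.9 and 14.1 TPM with vehicle (log2 change 0.78 ± 0.22, adjusted p = 0.0146). SESN2 in COLO 201 stood at 3.96, 3.80 and 3.92 TPM with doxycycline, against 4.98, 5.11 and 4.93 TPM with vehicle (log2 change -0.29 ± 0.06, adjusted p = 0.00120). SESN2 in H1975 stood at 49.0, 48.8 and 44.8 TPM with doxycycline, against 32.5, 33.9 and 37.7 TPM with vehicle (log2 change 0.44 ± 0.08, adjusted p = 4.47e-04). There was no overlap in any line, with doxycycline above vehicle in RKO and H1975 and below it in COLO 201. Without doxycycline column 2 or 3 the RKO call was lost (adjusted p of 0.0647 to 0.107). PPP1R15A (GADD34) brings a phosphatase to eIF2alpha and so ends the response. PPP1R15A in RKO stood at 148, 204 and 185 TPM with doxycycline, against 82.6, 125 and 107 TPM with vehicle (log2 change 0.77 ± 0.23, adjusted p = 0.0203). PPP1R15A in COLO 201 stood at 18.9, 16.6 and 17.0 TPM with doxycycline, against 16.9, 18.1 and 18.2 TPM with vehicle (log2 change -0.02 ± 0.06, adjusted p = 0.795). PPP1R15A in H1975 stood at 307, 303 and 264 TPM with doxycycline, against 182, 191 and 193 TPM with vehicle (log2 change 0.62 ± 0.07, adjusted p = 1.68e-05). Doxycycline columns were above vehicle columns in RKO and H1975, and the arms overlapped in COLO 201, where rescaling gave a call in the lower direction (-0.14, adjusted p = 0.0490). In RKO the call was lost without any of doxycycline columns 1, 2 and 3 or vehicle column 1 (adjusted p of 0.0513 to 0.125).

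EIF4EBP1 (4E-BP1) holds back cap-dependent translation. EIF4EBP1 in RKO stood at 51.1, 71.6 and 64.6 TPM with doxycycline, against 115, 110.0 and 93.0 TPM with vehicle (log2 change -0.76 ± 0.23, adjusted p = 0.0195). EIF4EBP1 in COLO 201 stood at 266, 257 and 276 TPM with doxycycline, against 224, 216 and 229 TPM with vehicle (log2 change 0.25 ± 0.04, adjusted p = 1.93e-04). EIF4EBP1 in H1975 stood at 278, 286 and 253 TPM with doxycycline, against 259.6, 233 and 269.7 TPM with vehicle (log2 change 0.10 ± 0.07, adjusted p = 0.299). Its columns moved apart downward in RKO and upward in COLO 201, and overlapped in H1975. The COLO 201 call was lost after rescaling (0.13, adjusted p = 0.0550), and the RKO call without doxycycline column 1 or 3 or vehicle column 2 (adjusted p of 0.0698 to 0.116).

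Of the serine, glycine and one-carbon enzymes, RKO had 0 higher and 3 lower of 5 tested, COLO 201 had 2 higher and 3 lower of 5, and H1975 had 1 higher and 2 lower of 6. After rescaling, 0 were higher and 3 lower in each line. With vehicle column 1 also left out, RKO had 0 higher and 5 lower of 5, against 28.9% and 29.9% of all genes. PHGDH (ENSG00000092621.12, chr1:119648411-119744226, GRCh38) takes the first step from glycolysis to serine. PHGDH in RKO stood at 22.3, 34.7 and 28.5 TPM with doxycycline, against 44.1, 72.1 and 67.6 TPM with vehicle (log2 change -1.07 ± 0.24, adjusted p = 0.00228). PHGDH in COLO 201 stood at 66.4, 63.5 and 67.0 TPM with doxycycline, against 79.2, 80.6 and 82.0 TPM with vehicle (log2 change -0.29 ± 0.04, adjusted p = 4.80e-05). PHGDH in H1975 stood at 59.7, 63.6 and 57.3 TPM with doxycycline, against 68.5, 66.3 and 73.7 TPM with vehicle (log2 change -0.20 ± 0.07, adjusted p = 0.0337). Every doxycycline column lay below every vehicle column in all 3 lines, and RKO had the lowest mean relative to vehicle, 0.465 times. Its RKO call was lost without doxycycline column 1 (adjusted p of 0.0636) and the H1975 call without doxycycline column 1 or 3 or vehicle column 1 or 3 (adjusted p of 0.0690 to 0.158). PSAT1 (ENSG00000135069.13, chr9:78297143-78330093, GRCh38) takes the next step. PSAT1 in RKO stood at 41.8, 72.0 and 53.0 TPM with doxycycline, against 78.3, 128 and 112 TPM with vehicle (log2 change -0.92 ± 0.25, adjusted p = 0.00910). PSAT1 in COLO 201 stood at 191, 195 and 185 TPM with doxycycline, against 278, 277 and 265 TPM with vehicle (log2 change -0.52 ± 0.04, adjusted p = 3.08e-07). PSAT1 in H1975 stood at 315, 303 and 354 TPM with doxycycline, against 358, 370.1 and 394 TPM with vehicle (log2 change -0.21 ± 0.07, adjusted p = 0.0340). Again the arms did not overlap in any line. The RKO call was lost without doxycycline column 1 (adjusted p of 0.133), and the H1975 call without any single column other than doxycycline column 3 (adjusted p of 0.0539 to 0.134).

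PSPH finishes serine synthesis. PSPH in RKO stood at 5.99, 10.9 and 7.60 TPM with doxycycline, against 11.9, 15.1 and 12.7 TPM with vehicle (log2 change -0.66 ± 0.21, adjusted p = 0.0248). PSPH in COLO 201 stood at 81.1, 81.9 and 79.3 TPM with doxycycline, against 72.7, 76.6 and 72.6 TPM with vehicle (log2 change 0.13 ± 0.04, adjusted p = 0.0152). PSPH in H1975 stood at 130.4, 129 and 138 TPM with doxycycline, against 124, 129.9 and 140.1 TPM with vehicle (log2 change 0.01 ± 0.07, adjusted p = 0.912). The arms were apart, downward in RKO and upward in COLO 201, and overlapped in H1975. The COLO 201 call was lost after rescaling (0.00, adjusted p = 0.957) and without vehicle column 1 or 3 (adjusted p of 0.0664 to 0.0708). The RKO call was lost without doxycycline column 1 or 3 or vehicle column 2 (adjusted p of 0.0969 to 0.198). MTHFD2 is the mitochondrial folate enzyme downstream of SHMT2. MTHFD2 in RKO stood at 35.9, 64.4 and 44.0 TPM with doxycycline, against 55.8, 93.4 and 78.3 TPM with vehicle (log2 change -0.66 ± 0.25, adjusted p = 0.0642). MTHFD2 in COLO 201 stood at 133, 134 and 122 TPM with doxycycline, against 188, 193 and 187 TPM with vehicle (log2 change -0.54 ± 0.04, adjusted p = 4.73e-07). MTHFD2 in H1975 stood at 155, 152 and 179 TPM with doxycycline, against 166, 184 and 182 TPM with vehicle (log2 change -0.13 ± 0.08, adjusted p = 0.173). Only the COLO 201 arms did not overlap. MTHFD2 was called lower in RKO without vehicle column 1 (-0.86) or doxycycline column 2 (-0.88), and in H1975 without doxycycline column 3 (-0.21) and after rescaling (-0.19).

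SHMT2, which turns serine into glycine in mitochondria, rose in COLO 201 (log2 change 0.21 ± 0.04, adjusted p = 6.86e-04) and in H1975 (log2 change 0.18 ± 0.06, adjusted p = 0.0432), and both calls were lost after rescaling (0.09 and 0.12). The H1975 call was also lost without any single column other than doxycycline column 3 (adjusted p of 0.0581 to 0.149). In RKO SHMT2 stood at a log2 change of -0.44 ± 0.24 (adjusted p = 0.198), and it was called lower without vehicle column 1 (-0.68, adjusted p = 0.0302). ALDH1L2, a mitochondrial folate dehydrogenase, was tested in H1975 alone, at -0.04 ± 0.08 (adjusted p = 0.711), and in RKO was above 0.0114 TPM in no column except vehicle column 1, at 2.06 TPM.

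As deposited, the other amino acid and mitochondrial enzymes gave 0 calls among 5 tested in RKO, where 3608 of 10551 genes had an unadjusted p under 0.05 in the same limma fit. They gave 1 higher and 2 lower of 6 in COLO 201 (0 and 3 after rescaling), and 3 and 0 of 6 in H1975 (1 and 2). ASNS makes asparagine. ASNS in RKO stood at 0.707, 1.01 and 0.912 TPM with doxycycline, against 0.986, 1.72 and 1.66 TPM with vehicle (log2 change -0.38 ± 0.23, adjusted p = 0.254). ASNS in COLO 201 stood at 48.0, 46.3 and 45.6 TPM with doxycycline, against 57.0, 56.0 and 57.7 TPM with vehicle (log2 change -0.28 ± 0.04, adjusted p = 7.33e-05). ASNS in H1975 stood at 530.1, 502 and 568 TPM with doxycycline, against 455, 486 and 477 TPM with vehicle (log2 change 0.17 ± 0.07, adjusted p = 0.0499). The arms were apart, downward in COLO 201 and upward in H1975, and overlapped in RKO, where ASNS was low in every column. In RKO it was called lower without vehicle column 1 (-0.52, adjusted p = 0.00294). The H1975 call was lost after rescaling (0.11, adjusted p = 0.102) and without any single column other than doxycycline column 2 (adjusted p of 0.0605 to 0.169).

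CBS and CTH carry sulfur from homocysteine to cysteine. CBS in COLO 201 stood at 0.910, 1.05 and 0.926 TPM with doxycycline, against 4.04, 3.50 and 4.29 TPM with vehicle (log2 change -1.33 ± 0.08, adjusted p = 6.25e-08). CBS in H1975 stood at 51.4, 51.7 and 49.7 TPM with doxycycline, against 55.3, 55.0 and 56.6 TPM with vehicle (log2 change -0.13 ± 0.06, adjusted p = 0.132). In RKO CBS was listed at 0 in every column but vehicle column 1, at 0.0549 TPM. A wide gap separated the arms in COLO 201, where the doxycycline mean was 0.244 times that of vehicle; in H1975 they were apart by a small margin and the gene was called lower after rescaling (-0.18) and with mitochondrially encoded genes removed (-0.18). CTH in RKO stood at 2.53, 4.03 and 3.11 TPM with doxycycline, against 2.35, 4.08 and 3.68 TPM with vehicle (log2 change -0.04 ± 0.20, adjusted p = 0.895). CTH in COLO 201 stood at 1.59, 1.50 and 1.82 TPM with doxycycline, against 1.58, 1.44 and 1.76 TPM with vehicle (log2 change 0.02 ± 0.08, adjusted p = 0.823). CTH in H1975 stood at 33.2, 29.9 and 35.2 TPM with doxycycline, against 23.2, 25.9 and 25.1 TPM with vehicle (log2 change 0.39 ± 0.08, adjusted p = 0.00163). Only in H1975 did the arms not overlap.

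ALDH18A1, the first enzyme of proline synthesis, rose in COLO 201 (log2 change 0.21 ± 0.04, adjusted p = 0.00109) and in H1975 (log2 change 0.19 ± 0.07, adjusted p = 0.0418). Both calls were lost after rescaling (0.08 and 0.13), and the H1975 call also without any single column other than doxycycline column 2 (adjusted p of 0.0517 to 0.136). PYCR1, the last enzyme of that path, was called in no line as deposited, with changes of -0.24, -0.01 and -0.04 in RKO, COLO 201 and H1975, and was called lower in COLO 201 after rescaling (-0.13). PCK2, mitochondrial PEP carboxykinase, stood at log2 changes of -0.04, 0.01 and -0.17, with a lower call in H1975 after rescaling (-0.23) or without vehicle column 2 (-0.23).

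The amino acid transporters were the role in which COLO 201 had more higher than lower calls: 4 higher and 1 lower of 7, while RKO and H1975 each had 0 higher and 1 lower of 7. After rescaling COLO 201 had 3 higher and 2 lower, and RKO and H1975 each had 0 higher and 2 lower. Among all tested COLO 201 genes 45.9% were higher and 15.0% lower as deposited, so that this direction was also that of all genes. After rescaling those shares were 28.5% and 28.7%. SLC1A5 (ASCT2) carries glutamine. SLC1A5 in RKO stood at 51.6, 74.7 and 67.5 TPM with doxycycline, against 88.5, 114 and 99.3 TPM with vehicle (log2 change -0.64 ± 0.23, adjusted p = 0.05002). SLC1A5 in COLO 201 stood at 1808, 1748 and 1821 TPM with doxycycline, against 1172, 1223 and 1181 TPM with vehicle (log2 change 0.59 ± 0.04, adjusted p = 2.31e-07). SLC1A5 in H1975 stood at 215, 238 and 205 TPM with doxycycline, against 218, 212 and 236 TPM with vehicle (log2 change -0.02 ± 0.07, adjusted p = 0.848). Doxycycline columns were below vehicle columns in RKO, above them in COLO 201 and mixed with them in H1975. In RKO the adjusted p just missed the threshold; SLC1A5 was called lower there after rescaling (-0.35, adjusted p = 0.0232), without vehicle column 1 (-0.73) and without doxycycline column 2 (-0.75). SLC7A5 (LAT1) carries leucine and other large neutral amino acids. SLC7A5 in RKO stood at 64.5, 96.4 and 89.4 TPM with doxycycline, against 81.4, 107 and 94.5 TPM with vehicle (log2 change -0.19 ± 0.23, adjusted p = 0.592). SLC7A5 in COLO 201 stood at 746, 775 and 743 TPM with doxycycline, against 569.8, 619.8 and 584 TPM with vehicle (log2 change 0.35 ± 0.04, adjusted p = 2.05e-05). SLC7A5 in H1975 stood at 359.7, 389 and 349.8 TPM with doxycycline, against 372, 379.6 and 425 TPM with vehicle (log2 change -0.10 ± 0.07, adjusted p = 0.290). The arms were apart only in COLO 201, with doxycycline above.

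SLC6A9 (GlyT1) carries glycine. SLC6A9 in RKO stood at 1.13, 1.72 and 1.56 TPM with doxycycline, against 3.65, 1.63 and 1.31 TPM with vehicle (log2 change -0.31 ± 0.24, adjusted p = 0.362). SLC6A9 in COLO 201 stood at 7.34, 7.49 and 7.74 TPM with doxycycline, against 5.03, 5.85 and 5.34 TPM with vehicle (log2 change 0.41 ± 0.06, adjusted p = 1.51e-04). SLC6A9 in H1975 stood at 8.28, 8.77 and 7.95 TPM with doxycycline, against 12.3, 11.7 and 14.0 TPM with vehicle (log2 change -0.55 ± 0.08, adjusted p = 1.76e-04). The arms were apart in opposite directions in COLO 201 and H1975; in RKO they overlapped, vehicle column 1 was the highest, and without it and with rescaling SLC6A9 was called higher (0.18). SLC38A2 (SNAT2) carries small neutral amino acids and rises in many cells that lack them. SLC38A2 in RKO stood at 57.0, 84.6 and 68.8 TPM with doxycycline, against 127, 145 and 122 TPM with vehicle (log2 change -0.91 ± 0.23, adjusted p = 0.00593). SLC38A2 in COLO 201 stood at 163, 187 and 144 TPM with doxycycline, against 180.0, 193 and 168 TPM with vehicle (log2 change -0.13 ± 0.08, adjusted p = 0.155). SLC38A2 in H1975 stood at 334, 316 and 392 TPM with doxycycline, against 293, 337 and 321 TPM with vehicle (log2 change 0.13 ± 0.08, adjusted p = 0.235). Only the RKO arms did not overlap, and that call was lost without doxycycline column 1 (adjusted p of 0.0636). SLC38A2 was called lower in COLO 201 after rescaling (-0.26) or without doxycycline column 2 (-0.23), and higher in H1975 without doxycycline column 2 (0.19).

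SLC3A2, the heavy chain that pairs with SLC7A5, rose in COLO 201 (log2 change 0.22 ± 0.04, adjusted p = 8.34e-04), a call lost after rescaling (0.10), and was not called in RKO (-0.13) or H1975 (0.01). SLC1A4 (ASCT1), a carrier of alanine and serine, fell in COLO 201 (log2 change -0.25 ± 0.04, adjusted p = 2.33e-04) and was called lower in H1975 only after rescaling (-0.18). SLC7A1, which carries arginine and lysine, was called in no line, with changes of -0.30, 0.04 and 0.05 in RKO, COLO 201 and H1975.

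As deposited, the secreted and surface proteins gave calls in H1975 alone, 0 higher and 2 lower of 4 tested. STC2 in H1975 stood at 58.9, 54.3 and 59.6 TPM with doxycycline, against 78.6, 81.6 and 79.0 TPM with vehicle (log2 change -0.46 ± 0.07, adjusted p = 1.20e-04). VEGFA, the vascular growth factor, in H1975 stood at 94.3, 91.5 and 92.0 TPM with doxycycline, against 105, 114 and 113 TPM with vehicle (log2 change -0.25 ± 0.06, adjusted p = 0.00754). Neither gene's arms overlapped in H1975. In RKO STC2 stood at a log2 change of -1.81 ± 0.72 (adjusted p = 0.0751), a value made by vehicle column 1, so that its calls without vehicle column 2 or 3 (-2.72 each) or doxycycline column 3 (-1.81) rest on that column. VEGFA in RKO was the highest in vehicle column 1 and was called higher without it after rescaling (0.33). VLDLR, a lipoprotein receptor, stood at log2 changes of 0.05 in COLO 201 and -0.01 in H1975, uncalled in both, and in RKO was listed at 0 in all columns except vehicle column 1, at 2.49 TPM. CLIC4, a chloride intracellular channel protein, was called in no line as deposited, with changes of -0.58, -0.12 and 0.04. It was called lower in COLO 201 after rescaling (-0.24) or without doxycycline column 2 (-0.18) or vehicle column 3 (-0.16), and in RKO without doxycycline column 2 (-0.78). FGF21, a hormone of the fasting response, could not be tested in any line: it was listed at 0 in all RKO columns and reached at most 0.298 TPM in the others.

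Within a column, ratios between members do not depend on the scaling of that column. The ratios below were chosen after the values were seen and are descriptions without a test. TRIB3 to ATF4 in RKO was 0.309, 0.370 and 0.364 with doxycycline, against 0.0709, 0.104 and 0.103 with vehicle. TRIB3 to ATF4 in COLO 201 was 0.137, 0.139 and 0.129 with doxycycline, against 0.103, 0.105 and 0.112 with vehicle. TRIB3 to ATF4 in H1975 was 0.700, 0.692 and 0.713 with doxycycline, against 0.563, 0.537 and 0.559 with vehicle. The doxycycline columns were above the vehicle columns in all 3 lines, by 1.93, 0.34 and 0.34 on the log2 scale. In COLO 201, where the TRIB3 call rested on the scaling, TRIB3 changed by 0.14 as deposited and 0.01 after rescaling. ATF4 changed there by -0.20 and -0.33, so this ratio does not show a rise of TRIB3 in COLO 201. CHAC1 to DDIT3 in RKO was 0.0804, 0.0833 and 0.0792 with doxycycline, against 0.281, 0.355 and 0.368 with vehicle. CHAC1 to DDIT3 in COLO 201 was 0.560, 0.574 and 0.529 with doxycycline, against 0.613, 0.680 and 0.737 with vehicle. CHAC1 to DDIT3 in H1975 was 0.0495, 0.0580 and 0.0532 with doxycycline, against 0.0681, 0.0628 and 0.0735 with vehicle. Here the doxycycline columns were below the vehicle columns in all 3 lines, by -2.04, -0.28 and -0.35. DDIT3 to ATF4 differed by 1.40 in RKO, -0.35 in COLO 201 and 0.13 in H1975, with no overlap of the arms in any line. PSAT1 to ATF4 differed by -0.80, -0.32 and -0.16 in the same order, and the arms overlapped in H1975. A ratio shows unequal change of its 2 genes and not which of them changed.

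**Figure D4:**
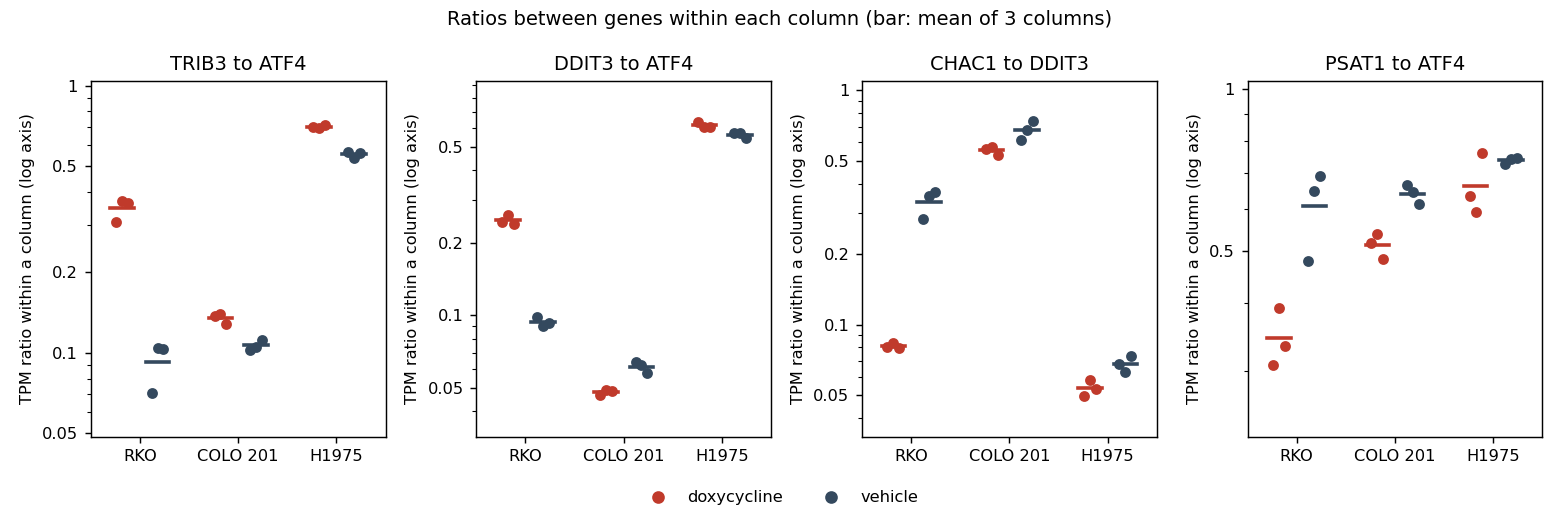
Ratio of 2 members' TPM within each column, on log axes, in RKO, COLO 201 and H1975, with doxycycline columns left of vehicle columns and bars at the means of 3 columns. TRIB3 to ATF4 is higher and CHAC1 to DDIT3 lower with doxycycline in each line, whereas DDIT3 to ATF4 is higher in RKO and H1975 and lower in COLO 201.

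Levels within a line, which TPM allow, put different members at the top. In RKO the highest vehicle mean was that of ATF4, with 159 ± 23.7 TPM with doxycycline and 174 ± 19.9 TPM with vehicle (SD, n = 3 each), ahead of SLC38A2, with 70.1 ± 13.8 TPM with doxycycline and 131 ± 12.1 TPM with vehicle. The SDs of those vehicle means leave a gap. In COLO 201 SLC1A5 led, with 1792 ± 38.8 TPM with doxycycline and 1192 ± 27.2 TPM with vehicle, followed by SLC7A5, with 755 ± 17.8 TPM with doxycycline and 591 ± 25.8 TPM with vehicle. In H1975 ATF4, with 492 ± 24.2 TPM with doxycycline and 507 ± 19.7 TPM with vehicle, and ASNS, with 533 ± 33.3 TPM with doxycycline and 473 ± 15.8 TPM with vehicle, were the 2 highest, and the ranges of 1 SD around their means overlapped in each arm. Since each table was normalized on its own, no level is compared between lines.

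**Figure D5:**
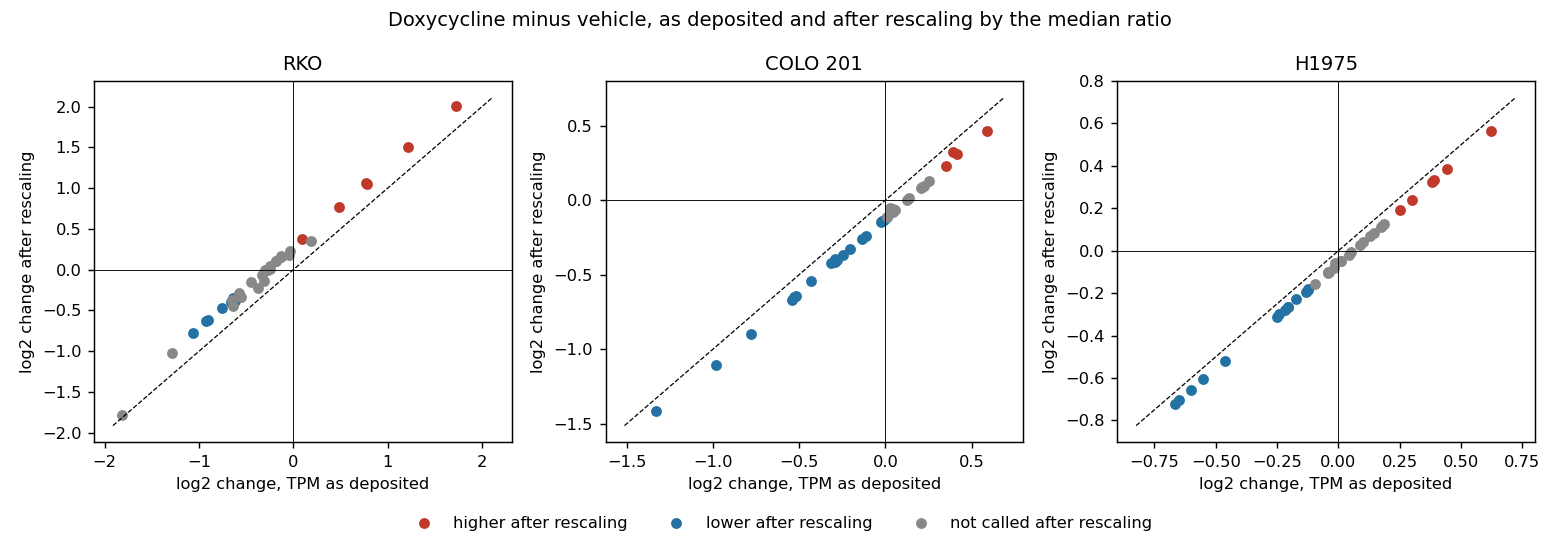
Log2 change of each tested member with doxycycline over vehicle, as deposited (horizontal) and after rescaling by the median ratio (vertical), with colours for the call after rescaling; the dashed line marks equal values. Points lie above the dashed line in RKO and below it in COLO 201 and H1975. Some members near 0 therefore change sign with the scaling, while TRIB3 in RKO and CBS in COLO 201 do not.

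Genes around the members were counted in the same fits. Of all tested genes, 2.09% were higher and 16.1% lower in RKO (13.7% and 14.2% after rescaling). With RKO vehicle column 1 also left out these shares were 28.9% and 29.9%. They were 45.9% and 15.0% in COLO 201 (28.5% and 28.7% after rescaling). In H1975 they were 23.9% and 14.6% (18.5% and 19.9% after rescaling). Of 25 other ATF4 and CHOP targets, RKO had 5 higher and 1 lower of 22 tested, COLO 201 had 8 higher and 7 lower of 23 (6 and 9 after rescaling), and H1975 had 2 higher and 5 lower of 23. In RKO these counts were 8 higher and 1 lower after rescaling, and 11 and 5 with vehicle column 1 also left out. GDF15, a secreted stress cytokine, rose in every line, with a log2 change of 0.84 ± 0.22 (adjusted p = 0.00698) in RKO, 1.08 ± 0.05 (adjusted p = 9.29e-09) in COLO 201 and 0.78 ± 0.07 (adjusted p = 3.50e-06) in H1975. GDF15 in RKO stood at 18.4, 28.9 and 22.3 TPM with doxycycline, against 15.3, 11.7 and 10.3 TPM with vehicle. The arms did not overlap, as in the other lines. WIPI1, which acts in autophagosome formation, also rose in each line, with log2 changes of 0.85 ± 0.20 (adjusted p = 0.00319), 0.84 ± 0.05 (adjusted p = 3.06e-08) and 0.65 ± 0.07 (adjusted p = 9.15e-06) in the same order. SQSTM1, an autophagy receptor, rose in COLO 201 (log2 change 0.98 ± 0.04, adjusted p = 4.70e-09), and MAP1LC3B, a coat protein of autophagosomes, fell there (log2 change -0.79 ± 0.04, adjusted p = 3.48e-08) and in H1975 (log2 change -0.53 ± 0.08, adjusted p = 2.17e-04). GOT1, which makes aspartate, rose in RKO (log2 change 1.17 ± 0.22, adjusted p = 4.15e-04) and in COLO 201 (log2 change 0.21 ± 0.05, adjusted p = 0.00146), where the call was lost after rescaling (0.09). Of the BH3-only death genes, PMAIP1 fell in RKO (log2 change -1.01 ± 0.19, adjusted p = 4.41e-04) and in COLO 201 (log2 change -0.24 ± 0.06, adjusted p = 0.00373). BBC3 rose in RKO (log2 change 0.73 ± 0.18, adjusted p = 0.00546), a call lost without doxycycline column 3, and in COLO 201 (log2 change 0.92 ± 0.09, adjusted p = 4.24e-06). CCNG2, an atypical cyclin, fell in COLO 201 (log2 change -0.61 ± 0.08, adjusted p = 2.76e-05) and in H1975 (log2 change -0.59 ± 0.09, adjusted p = 1.28e-04).

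Of 13 other serine and folate genes, RKO had 0 higher and 6 lower of 10 tested, COLO 201 had 7 higher and 1 lower of 11 (4 and 1 after rescaling), and H1975 had 1 higher and 2 lower of 12. In RKO 16.1% of all tested genes were lower as deposited and 14.2% after rescaling, where the counts of this list were 0 and 5. With RKO vehicle column 1 also left out they were 0 and 7 of 9, against 29.9% of all genes lower. In COLO 201 45.9% of all tested genes were higher as deposited and 28.5% after rescaling. In H1975 23.9% were higher and 14.6% lower as deposited. SFXN1, the mitochondrial serine transporter, was lower in all 3 lines, with a log2 change of -1.31 ± 0.19 (adjusted p = 1.40e-05) in RKO, -0.51 ± 0.04 (adjusted p = 1.02e-06) in COLO 201 and -0.37 ± 0.08 (adjusted p = 0.00302) in H1975. SFXN1 in RKO stood at 3.46, 5.05 and 4.22 TPM with doxycycline, against 13.1, 12.3 and 10.5 TPM with vehicle. The arms did not overlap in any line. TYMS, which makes thymidylate, fell in RKO (log2 change -1.51 ± 0.23, adjusted p = 3.06e-05) and rose in COLO 201 (log2 change 0.14 ± 0.04, adjusted p = 0.00660), where the call was lost after rescaling (0.01). In COLO 201 AMT, of the glycine cleavage system, rose (log2 change 0.76 ± 0.06, adjusted p = 5.36e-07).

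Upstream of ATF4, among 23 eIF2 kinases, their activators, eIF2 and eIF2B subunits and phosphatase genes, 0 were higher and 4 lower in RKO (2 and 4 after rescaling), 9 and 6 in COLO 201 (4 and 10 after rescaling), and 5 and 3 in H1975. In RKO 2.09% of all tested genes were higher and 16.1% lower, in COLO 201 45.9% and 15.0%, and in H1975 23.9% and 14.6%. After rescaling the shares were 13.7% and 14.2%, 28.5% and 28.7%, and 18.5% and 19.9%. PRKRA, an activator of the kinase PKR, fell in RKO (log2 change -0.98 ± 0.18, adjusted p = 4.08e-04), in COLO 201 (log2 change -0.37 ± 0.05, adjusted p = 5.70e-05) and in H1975 (log2 change -0.19 ± 0.07, adjusted p = 0.0489), where the call was lost without any single column other than doxycycline column 3. PPP1CC, a phosphatase catalytic subunit, fell in RKO (log2 change -1.16 ± 0.23, adjusted p = 6.87e-04) and in COLO 201 (log2 change -0.43 ± 0.06, adjusted p = 3.30e-05). EIF2AK2, which encodes PKR, fell in COLO 201 (log2 change -0.30 ± 0.08, adjusted p = 0.00654) and in H1975 (log2 change -0.73 ± 0.08, adjusted p = 1.74e-05), and EIF2AK4, the kinase GCN2 that senses uncharged tRNA, rose in COLO 201 (log2 change 0.38 ± 0.05, adjusted p = 2.06e-05). Of 14 other amino acid transporters, RKO had 0 higher and 1 lower of 9 tested (1 and 0 after rescaling), COLO 201 had 2 higher and 2 lower of 10 (2 and 4), and H1975 had 1 higher and 1 lower of 7. SLC7A6, a carrier of basic and neutral amino acids, was called lower in COLO 201 (-0.86) and higher in H1975 (0.33). Of 16 chaperone genes of the ATF6 and IRE1 branches, which run beside ATF4 in the unfolded protein response, 0 were higher and 3 lower in RKO (3 and 2 after rescaling), 1 and 10 in COLO 201 (0 and 12), and 5 and 1 in H1975 (5 and 2). PDIA4, a protein folding enzyme, fell in RKO (log2 change -0.98 ± 0.22, adjusted p = 0.00282) and in COLO 201 (log2 change -0.48 ± 0.04, adjusted p = 7.19e-07), and MANF fell in COLO 201 (log2 change -0.36 ± 0.04, adjusted p = 3.20e-06) and rose in H1975 (log2 change 0.33 ± 0.06, adjusted p = 8.97e-04).

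Some members share sequence with annotated copies: 9 have 27 such entries in GENCODE release 29, among them ATF4, PSAT1, PSPH, MTHFD2, ASNS, SLC7A5 and CBS. The tables list SLC7A5P2, at up to 2.65 TPM, and ASNSP1, at up to 0.594 TPM, in RKO, where CBSL and MTHFD2P1 were at 0. How reads that match a copy were counted is not given in the sources used here, so the levels of these members are uncertain to that extent.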

How the data were processed

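RNA from triplicate cultures was sequenced as stranded mRNA libraries, per the labels' protocols; STAR, DESeq2 and GRCh38 are named in the submitters' processing notes without versions. The authors deposited 1 table per line with TPM values in 6 columns, 3 per arm; TPM add up to the same total in each column and hold no read totals, so the depth of a sample is not known from them. Every column of the tables was mapped; 28 date-named COLO 201 entries (at most 0.0684% of TPM) were dropped.

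From the deposited TPM, log2(TPM + 1) was tested within each line with limma 3.58.1 (R 4.3.3, trend), for genes with a mean of at least 1 TPM, two-sided, with Benjamini-Hochberg adjustment over all genes tested. A joint fit with weights per line tested whether changes differ between lines. The fits within each line, but not the joint fit, were tested on simulated data with 200 changed genes. Those values were drawn independently for each gene and column. Symbols and positions came from GENCODE release 29, older symbols from RefSeq, promoter letters from RefSeq GRCh38.p14. The members and all lists were chosen with earlier results of these data known. Values per column are given for ATF4, DDIT3, ATF3, TRIB3, CHAC1, members called in all lines or in opposite directions, and the 4 largest rises and falls per line. One result of the wider gene lists is not reported here. Alternatives were other pseudocounts, minima and scalings, no trend, each column left out, and a block by column number.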

Additional observations from a re-analysis of the deposited data

Results flagged for a closer look

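The change with doxycycline differed between the lines for 20 of the 32 members tested in every line (adjusted p below 0.05, F test of a joint limma fit over 9275 genes), where 56.8% of all genes did. In 6 of the 20 the separate fits called opposite directions as deposited. The share of all genes with opposite calls was not counted. After rescaling, EIF4EBP1 and PSPH lost their COLO 201 calls (limma adjusted p = 0.0550 and 0.957) and ASNS its H1975 call (0.102). DDIT3 had the smallest adjusted p (F test, 2.52e-08), with RKO above and COLO 201 below 0. SLC1A5 (8.70e-07), SLC7A5 (4.05e-04) and SLC6A9 (1.99e-06) were higher in COLO 201. SESN2 (1.50e-06) and PPP1R15A (1.86e-05) stood higher in RKO and H1975 than in COLO 201, and TRIB3 (1.03e-05) and CEBPB (0.0130) highest in RKO. EIF4EBP1 (3.67e-04), PSPH (0.00410), PHGDH (0.00434), SHMT2 (0.0224) and SLC38A2 (0.00901) stood lowest in RKO, as did PSAT1 (0.00622) and MTHFD2 (0.00564). CHAC1 (5.24e-04) stood lowest in COLO 201, ASNS (1.72e-04) and CTH (0.0178) highest in H1975, ATF5 (0.0313) lowest in H1975, and VEGFA (0.0424) highest in COLO 201. The F test does not tell which line differs, and these places are by the change alone. Contrasts of the joint limma fit did not separate RKO from COLO 201 for PSAT1 (adjusted p = 0.129), MTHFD2 (0.705), CHAC1 (0.552) or VEGFA (0.277). Nor did they separate RKO from H1975 for MTHFD2 (0.0962), CEBPB (0.126), CTH (0.181) or ATF5 (0.331).

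Without 1 column, 4 of these calls were lost: ATF5 without H1975 vehicle column 2 or doxycycline column 3 or COLO 201 vehicle column 1 or 2 (adjusted p of 0.0514 to 0.112), CTH without H1975 doxycycline or vehicle column 1 (0.0571 and 0.0621), SHMT2 without RKO doxycycline column 1 or 3 or vehicle column 2 or 3 (0.0756 to 0.142), and VEGFA without 10 of the 18 columns in turn, from all 3 lines (0.0508 to 0.116). After rescaling SHMT2 (F test adjusted p = 0.302) and VEGFA (0.246) were not called, while ATF4 (0.00138) and CEBPG (4.55e-04) were. That fit called 20 of 32 members, beside 5096 of 9259 genes. With RKO vehicle column 1 also left out it called 25 of 32, beside 6475 of 9138 genes. The joint fit without weights per line called 17 of 32 members, beside 4995 of 9275 genes. MTHFD2 (F test adjusted p = 0.135), CTH (0.116), ATF5 (0.211) and VEGFA (0.422) were then not called, and CLIC4 (0.0359) was.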

How the results depend on the processing

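The processing moved RKO most. With no minimum TPM, RKO had 0 members higher, 0 lower and 28 genes called in all, against 4, 8 and 1915; with a pseudocount of 5 it had 5 lower. Rescaling by the median ratio called 2939 RKO genes, and with vehicle column 1 also left out 6048 genes, 11 members higher and 14 lower. In that last setting ATF4 (0.14), NUPR1 (0.34), SLC6A9 (0.18) and VEGFA (0.33) turned from below 0 to called higher. MUC1 in RKO lost its call with a pseudocount of 5 (-0.83), no minimum TPM (-1.88), rescaling (-1.77), small noncoding genes removed (-2.77) and the replicate block (-1.88). Rescaling left 4 members higher in COLO 201, turned CEBPG there to called lower (-0.11) and moved the members' median to -0.14 (-0.081 with mitochondrially encoded genes removed); in H1975 it gave 14 lower and a median of -0.080. The cause of these moves was not tested. With 1 column left out, RKO had 2 to 4 members higher, 0 to 12 lower, 595 to 2410 genes called and MUC1 between -2.40 and -1.86 (without vehicle column 1 MUC1 was under the minimum TPM and not tested; the plain difference was -0.90); H1975 had 5 to 9 higher and 3075 to 5206 genes called. Whether column numbers pair the samples is not established. Correlations of deviations between same-numbered columns were 0.29, 0.27 and -0.01 in RKO and -0.05, 0.15 and 0.28 in COLO 201. In H1975 they were 0.16, -0.42 and -0.35. With 3 columns per arm these values cannot decide it, so the replicate block is an alternative only. With the block 4 members were higher and 9 lower in RKO, beside 344 and 2071 of 10551 genes. In COLO 201 these counts were 10 and 15, beside 5744 and 2015 of 11566 genes. In H1975 they were 6 and 6, beside 2209 and 1529 of 12359 genes. With the block 21 of 32 members differed between lines, beside 6036 of 9275 genes. Values of single members called under neither setting were not counted as reversed when their sign changed. TPM do not show depth, so no counting error is given.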
